A study of Mus musculus with 10 samples.

Results

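The interferon receptor and JAK-STAT genes described here are 9 of the 31053 genes counted, listed by name with earlier results of these data known. They are the receptor subunits Ifnar1, Ifnar2, Ifngr1 and Ifngr2, the kinases Jak1 and Jak2, the transcription factor Stat2 and the feedback inhibitors Socs1 and Socs3. All 9 were detected. E0771 mouse mammary carcinoma cells were implanted orthotopically in female C57BL/6 mice aged 16 weeks and grown for 21 days, and the dissociated tumors were profiled by scRNA-seq with a droplet method. EC-AGO1-KO mice carried the AGO1 flox/flox alleles with a VE-Cadherin-Cre transgene, which deletes the target in endothelial cells, and WT mice were their littermates, so that the tumor cells themselves were WT in both groups. Of the 10 libraries, 5 were WT and 5 KO, with 1 of each genotype sequenced in batch 1 and the other 4 of each in batch 2. The libraries KO 2+3 and KO 5+6 each pooled 2 small tumors, while every other library held 1 tumor.

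Type I interferons signal through a receptor of the Ifnar1 and Ifnar2 chains, and interferon gamma through a receptor of the Ifngr1 and Ifngr2 chains. Ligand binding activates receptor-bound Janus kinases, among them Jak1 and Jak2, and these phosphorylate STAT proteins, which enter the nucleus and switch on interferon-stimulated genes. Socs1 and Socs3 are induced by cytokine signalling and bind the receptors or kinases to shut the pathway down. In tumors the pathway is known for antigen presentation, for chemokines that attract T cells and for growth control of the tumor cells.

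The 65298 cells kept held 200 to 7000 genes each and at most 10% mitochondrial UMIs, a UMI being 1 counted RNA molecule. The libraries held 8323896 to 10591577 UMIs. Median depth was 3862 to 4049 UMIs per cell in batch 1 and 595 to 1142 in batch 2. Actb took 1.99% to 2.27% of UMIs in batch 1 and 8.77% to 17.0% in batch 2, so levels are compared within a batch. Pairs of libraries shared between 0 and 28 cell barcodes. Clusters were named from marker genes as tumor-like (55141 cells), macrophage-like (1780), T-like (977), stroma-like (751) and monocyte-like (393). The stroma-like class joined fibroblast, pericyte and endothelial clusters. KO 2+3 alone held 395 of the T-like cells. WT 4 held 14 T-like cells and 5 monocyte-like cells, and it was left out of the monocyte-like class, for which a minimum of 10 cells was set. The targeted gene, Ago1, was too rare for a check: stroma-like cells held 6 Ago1 UMIs in WT and 1 in KO, and tumor-like cells, where it is not deleted, held 164 and 149.

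The genes lie on chromosomes 4, 10, 11, 16 and 19 of the mouse genome (GRCm38, equivalent to mm10, GENCODE M21 annotation). Of the receptor subunits, all but Ifngr1 are neighbours on the plus strand of chromosome 16, with Ifnar2 at 91372783 to 91405589, Ifnar1 at 91485238 to 91507441 and Ifngr2 at 91547072 to 91565623. Ifnar2 overlaps the annotated gene Gm21970 on the same strand, so its counts are less certain than those of the other 8 genes. Ifngr1 lies on chromosome 10 (19591949 to 19610229), Jak1 on chromosome 4 (101152367 to 101265282), Jak2 on chromosome 19 (29251828 to 29313080) and Stat2 on chromosome 10 (128270559 to 128292849). Socs1 lies on chromosome 16 (10782240 to 10785536) and Socs3 on chromosome 11 (117966079 to 117970047).

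The promoters of Stat2, Socs1 and Socs3 are shown because these genes encode components that interferon or cytokine signalling is itself known to induce, and because Stat2 and Socs3 carried the lowest p-values between genotypes. Each run is the RefSeq sequence (GRCm38.p6) from 250 bases before to 50 bases after the gene start in RefSeq, 5′ to 3′ on the strand of the gene, at chr10:128270248-128270547 (plus strand), chr16:10785487-10785786 (minus strand) and chr11:117969317-117969616 (minus strand). Capitals mark matches, on either strand, to the interferon-stimulated response element, searched as GAAA followed after a gap of 2 bases by GAAA again (ISRE), or to the gamma-activated sequence written as TTCNNNGAA (GAS).
Stat2: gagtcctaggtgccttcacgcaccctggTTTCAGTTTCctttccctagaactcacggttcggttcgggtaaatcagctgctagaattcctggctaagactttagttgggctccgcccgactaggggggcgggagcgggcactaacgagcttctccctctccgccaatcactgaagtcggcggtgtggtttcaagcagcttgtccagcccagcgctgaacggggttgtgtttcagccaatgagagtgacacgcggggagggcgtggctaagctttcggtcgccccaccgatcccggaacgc
Socs1: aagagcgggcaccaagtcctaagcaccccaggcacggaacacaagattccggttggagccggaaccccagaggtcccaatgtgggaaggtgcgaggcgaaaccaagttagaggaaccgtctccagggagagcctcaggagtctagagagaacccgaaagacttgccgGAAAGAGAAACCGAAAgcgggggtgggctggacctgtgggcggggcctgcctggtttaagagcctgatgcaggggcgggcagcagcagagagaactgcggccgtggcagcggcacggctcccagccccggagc
Socs3: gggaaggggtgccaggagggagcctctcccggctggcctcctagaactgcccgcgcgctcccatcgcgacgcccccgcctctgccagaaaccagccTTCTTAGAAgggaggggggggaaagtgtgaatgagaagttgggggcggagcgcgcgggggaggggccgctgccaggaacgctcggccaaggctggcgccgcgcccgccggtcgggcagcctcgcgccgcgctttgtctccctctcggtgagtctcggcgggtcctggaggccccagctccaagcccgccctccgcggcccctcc
The RefSeq start is that of the GENCODE coordinates above for Socs1, lies 61 bases before it for Stat2 and 681 bases after it for Socs3, so the Socs3 window lies within the gene as GENCODE draws it. Counted from the RefSeq start, Stat2 held 1 ISRE match, whose leftmost base lies at -222. Socs1 held 2 ISRE matches that overlap each other, at -83 and -77. Socs3 held 1 GAS match at -154. Of the other 6 genes, Ifnar1 (-5) and Ifnar2 (-214) each held 1 GAS match and the rest held neither motif. Of 32851 promoters of this length, 3.44% held the ISRE letters and 8.30% the GAS letters. A match describes letters only, and neither binding nor use of these sites was measured.

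Across cell classes, all 9 genes had a higher batch 2 mean in macrophage-like than in tumor-like cells. The share of all genes with a higher mean there is not given here. For Jak1 the order held in 5 of 8 libraries (176 against 160 CPM) and in 0 of 2 in batch 1. For Socs1 it held in 3 of 8 libraries, on 0 or 1 macrophage-like UMI per library. T-like cells differed from tumor-like cells by gene. In batch 2 Ifngr1, Jak1 and Jak2 had higher means in T-like cells. So did Ifnar1 (5.79 times, higher in 4 of 8 libraries) and Socs1 (2.55 times, higher in 3 of 8), on few UMIs. Ifngr2 was lower in T-like cells in 8 of 8 libraries, on 0 to 10 T-like UMIs per library. The means of Ifnar2 (0.97 times) and Socs3 (0.83 times) were also lower, and Stat2 was level (1.01 times). In batch 1 the Ifngr2 mean was higher in T-like (75.6 CPM) than in tumor-like cells (41.0 CPM), in 1 of 2 libraries. Levels are UMIs of a gene per 1000000 UMIs of the class (CPM). They are averaged over the 8 libraries of batch 2, or over 7 for monocyte-like cells, and they are a description without a test, because the classes were cut from the same cells. Each level is a share of the UMIs of its class, so it does not give molecules per cell.

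**Figure D1:**
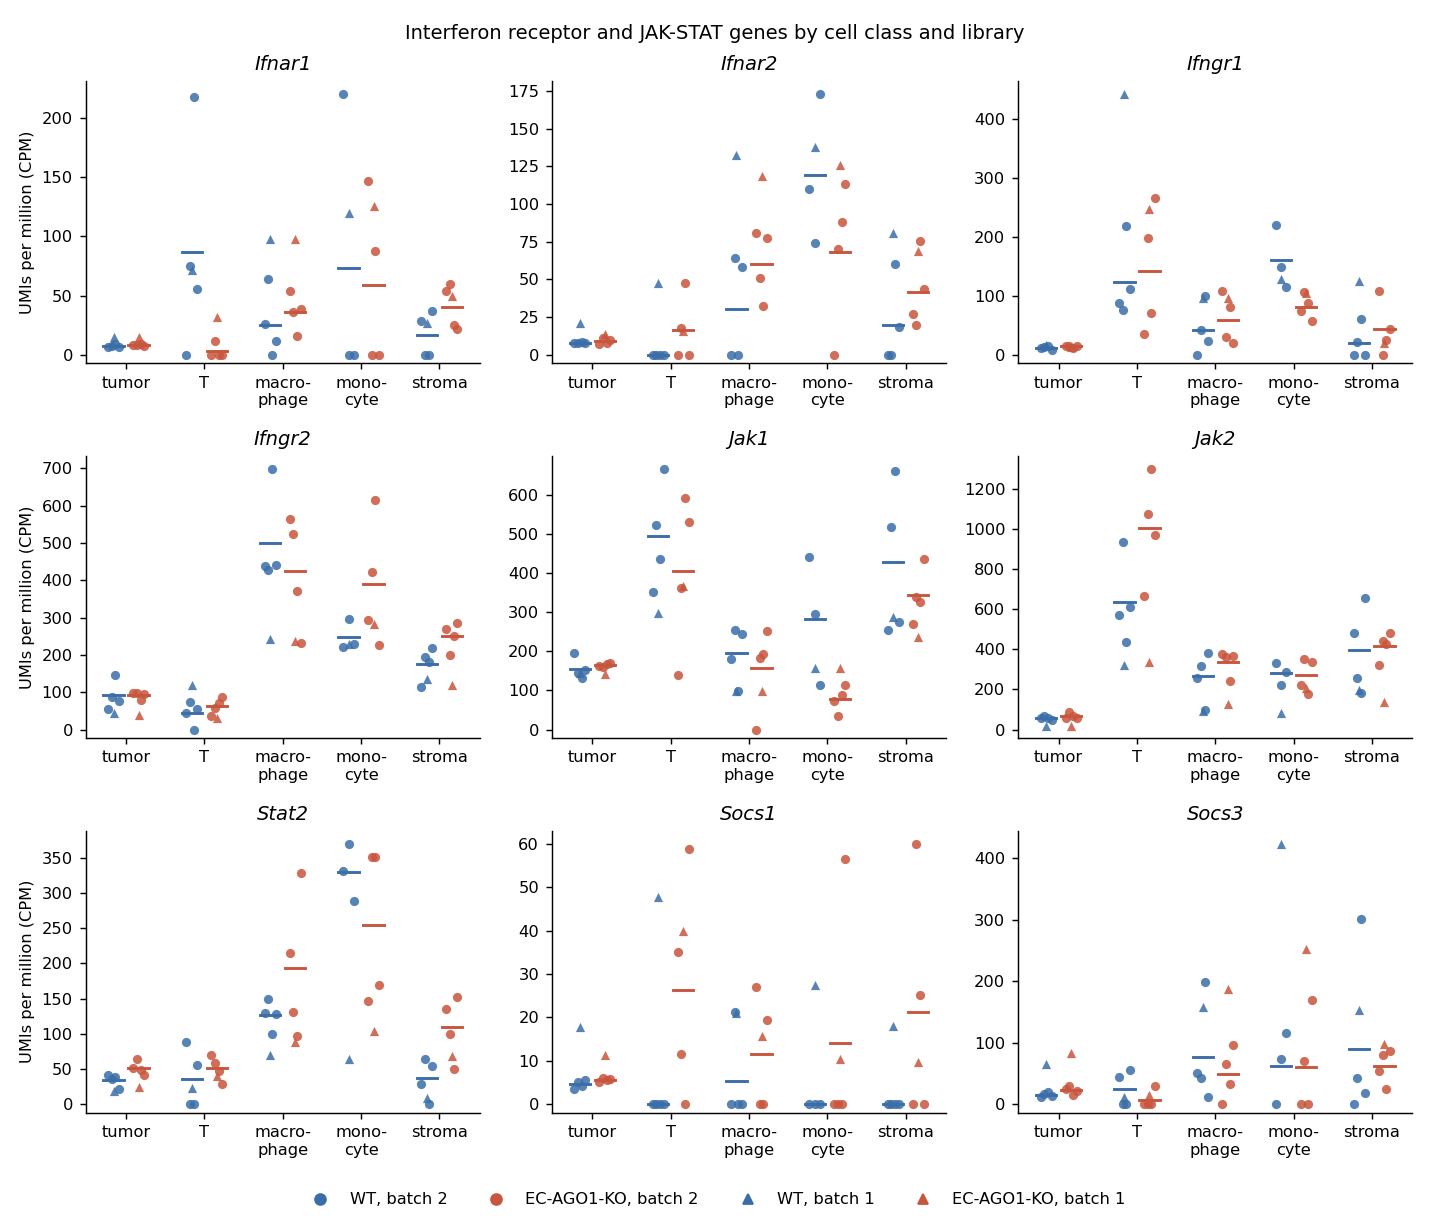
Each panel plots 1 gene, with the level in UMIs per 1000000 UMIs (CPM) on the vertical axis and the 5 cell classes on the horizontal axis. Points are libraries (circles batch 2, triangles batch 1, blue WT, red EC-AGO1-KO) and bars are batch 2 group means. Jak2 stands highest in T-like cells, Ifngr2 in macrophage-like cells and Stat2 in monocyte-like cells of batch 2, and the WT and KO points overlap in most panels.

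Ifnar1 and Ifnar2, the chains of the type I interferon receptor, were highest in the myeloid classes in batch 1, the deeper of the batches per cell. There Ifnar1 reached 120 CPM (WT) and 126 CPM (KO) in monocyte-like cells, 98.0 and 97.5 in macrophage-like cells, 71.6 and 31.9 in T-like cells, 26.9 and 49.2 in stroma-like cells and 14.9 and 14.7 in tumor-like cells. Both batch 1 libraries kept monocyte-like above macrophage-like above T-like cells, while T-like cells stood above stroma-like cells in WT and below them in KO. Ifnar2 followed a like order, at 138 and 126 CPM in monocyte-like, 133 and 118 in macrophage-like, 80.7 and 68.9 in stroma-like, 47.8 and 15.9 in T-like and 20.8 and 13.8 in tumor-like cells. In batch 2 the means were 7.77 ± 0.98 CPM for Ifnar1 and 8.38 ± 1.46 for Ifnar2 in tumor-like cells (SD, n = 8). They were 30.8 ± 21.6 and 45.4 ± 31.8 in macrophage-like cells, where only 15 and 24 UMIs were counted. Macrophage-like cells exceeded tumor-like cells in 7 of 8 libraries for Ifnar1 and in 6 of 8 for Ifnar2. In batch 2 the Ifnar1 mean was 65.0 ± 89.6 CPM in monocyte-like cells (n = 7) and 45.0 ± 75.7 in T-like cells, above the macrophage-like mean, and neighbours in this order kept it in 3 of 7 and 3 of 8 libraries. In T-like cells of batch 2 the chains rested on 6 and 5 UMIs, and Ifnar2 had 0 UMIs in the 4 WT libraries, which allows up to 41.7 CPM at a limit of 3 UMIs over the group.

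Ifngr1 and Ifngr2, the chains of the interferon gamma receptor, differed in where they were high. Ifngr1, the ligand-binding chain, reached 442 CPM (WT) and 247 CPM (KO) in T-like cells of batch 1, against 15.6 and 12.2 in tumor-like cells. In batch 2 its T-like level was 88.0, 74.9, 218 and 111 CPM in WT 1, 3, 4 and 5 and 35.1, 198, 71.0 and 265 CPM in KO 1, 2+3, 4 and 5+6. In the same order these levels rested on 2, 2, 1 and 2 UMIs in WT and 1, 34, 3 and 9 UMIs in KO. A single UMI was enough to exceed the tumor-like level in WT 4 and KO 1. The groups overlapped, and all 8 libraries exceeded their own tumor-like level, which ranged from 7.68 to 15.1 CPM. Monocyte-like cells of batch 2 held a similar mean of 115 ± 55 CPM (n = 7), and only 2 of 7 libraries kept T-like above monocyte-like cells. Ifngr2, the signalling chain that completes the receptor, instead reached 462 ± 138 CPM in macrophage-like and 329 ± 144 CPM in monocyte-like cells. It stood at 214 ± 55 CPM in stroma-like, 91.8 ± 25.7 in tumor-like and 53.4 ± 27.5 in T-like cells. Of 7 libraries, 6 kept each of the neighbouring pairs macrophage above monocyte and monocyte above stroma, and all 8 kept stroma above tumor and tumor above T-like cells. The neighbouring ranges overlapped. In the barcodes with at most 50 UMIs, which hold mainly free RNA, Ifngr2 measured 88.0 to 170 CPM in batch 2, above the mean of the T-like cells. Free RNA of batch 2 also held 18.7 to 42.8 CPM of Ifngr1, 10.4 to 19.3 of Ifnar1 and 15.4 to 28.1 of Ifnar2. These ranges lay above the tumor-like means, and the part of free RNA in the levels was not tested.

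Jak1 and Jak2 are kinases bound to the receptor chains, Jak1 in both receptors and Jak2 in the interferon gamma receptor. The T-like level of Jak2 in batch 2 was 572, 937, 436 and 611 CPM in WT 1, 3, 4 and 5 and 667, 1074, 1301 and 971 CPM in KO 1, 2+3, 4 and 5+6. Of the KO libraries, 3 exceeded every WT library and KO 1 did not, so the groups overlapped. The T-like mean of 821 ± 295 CPM (SD, n = 8) was 13.1 times the tumor-like mean of 62.6 ± 12.1 CPM, and in batch 1 the ratio was 19.2 (328 against 17.1 CPM). Free RNA held 48.4 to 88.1 CPM of Jak2 in batch 2, below the T-like level in every library. Below the T-like cells came stroma-like (406 ± 149 CPM), macrophage-like (302 ± 98) and monocyte-like cells (275 ± 70). T-like stood above stroma-like cells in 7 of 8 libraries, the next steps down each held in 6 of 8 and 6 of 7 libraries, and all 7 libraries kept monocyte-like above tumor-like cells, with no overlap of the ranges. Jak1 varied less between classes. Its batch 2 mean was 450 ± 166 CPM in T-like and 385 ± 144 in stroma-like cells, against 176 ± 88, 166 ± 147 and 160 ± 19 CPM in macrophage-like, monocyte-like and tumor-like cells. These last 3 classes did not differ beyond their spread, and in batch 1 macrophage-like cells were below tumor-like cells (98.9 against 144 CPM) in both libraries.

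Stat2, the partner in the transcription factor complex formed after type I interferon, was highest in monocyte-like cells at 287 ± 92 CPM (SD, n = 7) and next in macrophage-like cells at 160 ± 78 CPM (n = 8). This order held in 5 of 7 libraries, with 2 to 10 monocyte-like UMIs in each. The monocyte-like cluster of batch 2 also passed macrophage markers such as C1qb, Adgre1, Mrc1 and Csf1r, so these classes are not fully separated. Macrophage-like exceeded stroma-like cells (73.3 ± 52.4 CPM) in 8 of 8 libraries. T-like and tumor-like cells were level, at 43.6 ± 31.7 and 43.3 ± 12.6 CPM, the T-like mean on 0 to 10 UMIs per library. The order of monocyte-like, macrophage-like and stroma-like cells was the same for the batch 1 means (84.6, 78.7 and 38.9 CPM), although only 1 of the 2 libraries kept the upper pair in order.

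Socs1 and Socs3 are the inhibitors, and in batch 1 Socs3 exceeded Socs1 in every class except the T-like cells. Socs1 had 250 UMIs over the 8 tumor-like samples of batch 2 (5.19 ± 0.89 CPM) and 1 to 5 UMIs in each other class. It had 0 UMIs in T-like, monocyte-like and stroma-like cells of the WT libraries of batch 2, which allows up to 41.7, 75.1 and 19.6 CPM. In batch 1 it reached 47.8 CPM (WT) and 39.8 CPM (KO) in T-like cells, against 17.7 and 11.3 in tumor-like cells. Socs3 was highest in monocyte-like cells of batch 1, at 423 and 252 CPM. Macrophage-like (157 and 188 CPM), stroma-like (152 and 98.5 CPM) and tumor-like cells (65.0 and 83.3 CPM) followed, and T-like cells were lowest at 11.9 and 15.9 CPM. In both libraries of batch 1 each of these steps held. In batch 2 Socs3 stood at 19.5 ± 6.1 CPM in tumor-like cells and at 76.1 ± 95.5, 62.5 ± 63.1 and 61.3 ± 66.1 CPM in stroma-like, macrophage-like and monocyte-like cells, a spread too wide to order these 3.

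For each gene, the genes with the most similar profile were sought among 10812 genes with at least 200 UMIs, as the Pearson r of mean log2(CPM + 20) over the 5 classes in each batch (10 points that share libraries and depth). The closest genes were Clec2d (r = 0.971) and Ifit3 (0.968) for Ifnar1, Ifi211 (0.948) and Il4ra (0.947) for Ifnar2, Shisa5 (0.951) and Esyt1 (0.943) for Ifngr1 and Lgals8 (0.967) and Tgm2 (0.962) for Ifngr2. For the kinases they were Il6st (0.947) and Ppp1r16b (0.925) for Jak1 and Arhgef3 (0.966) and Kdm6a (0.956) for Jak2. Stat2 paired with Enox2 (0.958) and Gm36161 (0.956), Socs1 with Lin37 (0.973) and Eef1akmt2 (0.963), and Socs3 with Batf2 (0.973) and Ifitm3 (0.964).

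Among the tumor-like cells, Stat2 stood out in 1 cluster of interferon-response cells, which was defined by Ifit1, Ifit2, Rsad2 and Isg15. This cluster made up 7.03%, 7.15%, 8.97% and 4.54% of tumor-like cells in WT 1, 3, 4 and 5 and 10.1%, 8.79%, 11.6% and 9.61% in KO 1, 2+3, 4 and 5+6, so the groups overlapped only through WT 4 and KO 2+3. Stat2 measured 120 ± 25 CPM in interferon-response cells and 35.6 ± 10.9 in other tumor-like cells of the same libraries (SD, n = 8). The ratio was 2.52 to 5.46 and above 1 in all 8 libraries. Jak2 was also higher there in all 8 libraries, at 91.7 ± 22.3 against 60.0 ± 11.6 CPM. Jak1 was higher in 7 of 8 libraries, at 175 ± 20 against 159 ± 19 CPM. The share of all genes higher there in all 8 libraries is not given here. Of the receptor chains, Ifngr2 measured 91.5 ± 26.7 against 91.6 ± 26.3 CPM, Ifngr1 14.3 ± 4.8 against 12.9 ± 2.6, Ifnar1 7.58 ± 5.11 against 7.80 ± 1.04 and Ifnar2 6.45 ± 5.25 against 8.54 ± 1.42. They were higher in interferon-response cells in 4, 3, 3 and 2 of 8 libraries. Socs1 (4.90 ± 2.60 against 5.24 ± 0.98 CPM) and Socs3 (16.2 ± 8.3 against 19.8 ± 6.0) were not higher on average. The cluster was cut from the same cells, although the 9 genes were kept out of the clustering, so these values carry no test.

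**Figure D2:**
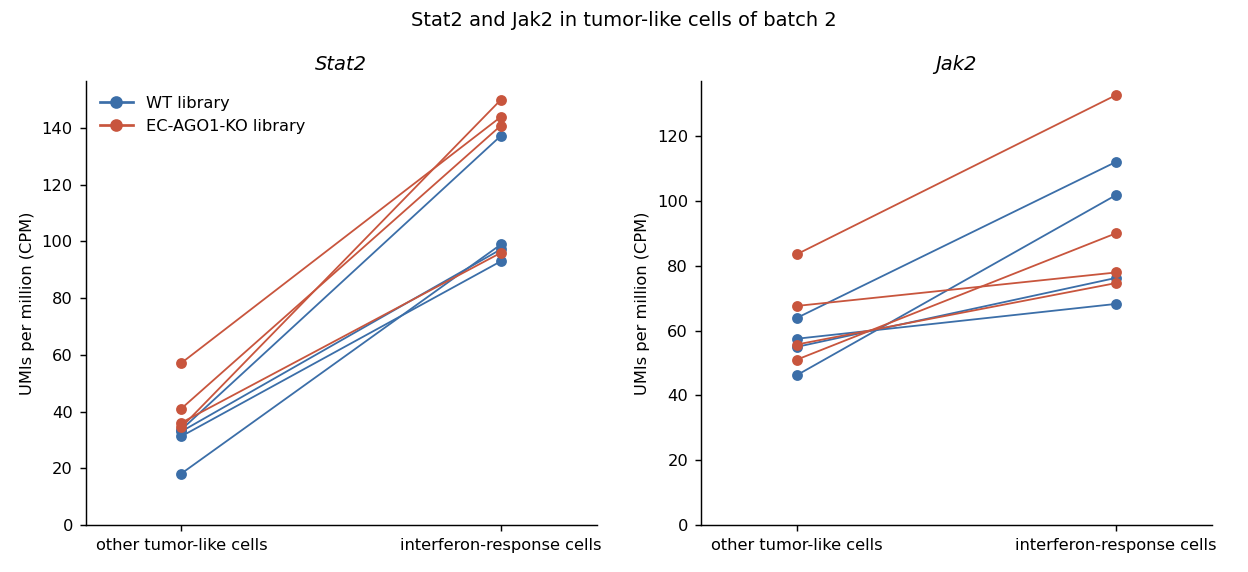
Levels of Stat2 (left) and Jak2 (right) in UMIs per 1000000 UMIs (CPM) on the vertical axes, in other tumor-like cells and in interferon-response cells on the horizontal axes, with 1 line for each of the 8 libraries of batch 2 (blue WT, red EC-AGO1-KO). Every line rises, from a mean of 35.6 to 120 for Stat2 and from 60.0 to 91.7 for Jak2.

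The genotype comparison asked whether receptor or signalling genes differed between tumors of EC-AGO1-KO and WT mice. In tumor-like cells none of the 9 genes passed an adjusted p of 0.05 in edgeR's quasi-likelihood test over all genes with batch as a term, and 0 of 11490 genes did (0%). At an unadjusted p under 0.05 there were 2 of the 9 genes, Stat2 and Socs3, both higher in KO, where 5.34% of all genes passed (614, of which 266 or 2.32% of those tested were higher in KO). DESeq2 called 3 genes (0.0261%) and none of the 9. The median log2 fold change of the 9 genes was 0.03, beside 0.00 over all genes tested.

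The tumor-like level of Stat2 was 19.2 CPM in WT batch 1 and 41.5, 35.9, 39.0 and 21.7 CPM in WT 1, 3, 4 and 5. It was 24.4 CPM in KO batch 1 and 52.1, 64.8, 49.1 and 42.1 CPM in KO 1, 2+3, 4 and 5+6. KO exceeded WT in batch 1, and in batch 2 every KO library exceeded every WT library on the scale of all UMIs, narrowly so between KO 5+6 and WT 1, while the groups overlapped once libraries were scaled by TMM. On the first scale 354 of 11490 genes (3.08%) lay higher in KO without overlap and 41 (0.357%) lower, whereas with TMM the numbers were 182 and 187. Free RNA held 27.1 to 51.3 CPM of Stat2 in batch 2, and its part in these levels was not tested. The fitted log2 fold change was 0.49 ± 0.17 (SE; unadjusted p = 0.0121, adjusted p = 0.871). Without the interferon-response cells, a setting added after the data were seen, it was 0.45 (unadjusted p = 0.0276, adjusted p = 0.866). Among interferon-response cells alone Stat2 measured 137, 93.0, 97.2 and 98.9 CPM in WT 1, 3, 4 and 5 and 141, 144, 150 and 96.0 CPM in KO 1, 2+3, 4 and 5+6, and the groups overlapped.

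Socs3 in tumor-like cells measured 65.0 CPM in WT batch 1 and 12.5, 16.6, 19.7 and 14.3 CPM in WT 1, 3, 4 and 5. It measured 83.3 CPM in KO batch 1 and 25.1, 30.2, 14.9 and 22.5 CPM in KO 1, 2+3, 4 and 5+6. In batch 2, KO 1, KO 2+3 and KO 5+6 exceeded every WT library and KO 4 lay within the WT range. Free RNA of batch 2 held 14.4 to 27.3 CPM of Socs3, and its part in these levels was not tested. The log2 fold change was 0.45 ± 0.19 (SE; unadjusted p = 0.0297, adjusted p = 0.871). It was 0.33 (unadjusted p = 0.101) without KO 2+3, and without WT 1, WT 5 or KO 1 the unadjusted p was 0.0758, 0.0617 or 0.0699.

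For the remaining 7 genes no difference was detected in tumor-like cells. Their log2 fold changes were 0.03 ± 0.17 for Ifnar1, -0.06 ± 0.19 for Ifnar2, 0.07 ± 0.19 for Ifngr1, -0.11 ± 0.21 for Ifngr2, 0.00 ± 0.10 for Jak1, 0.12 ± 0.15 for Jak2 and -0.02 ± 0.21 for Socs1, each within 1 SE of 0. Their unadjusted p ranged from 0.411 (Jak2) to 0.969 (Jak1). The tightest of them, Jak1, measured 195, 145, 131 and 153 CPM in WT 1, 3, 4 and 5 and 162, 159, 168 and 169 CPM in KO 1, 2+3, 4 and 5+6.

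**Figure D3:**
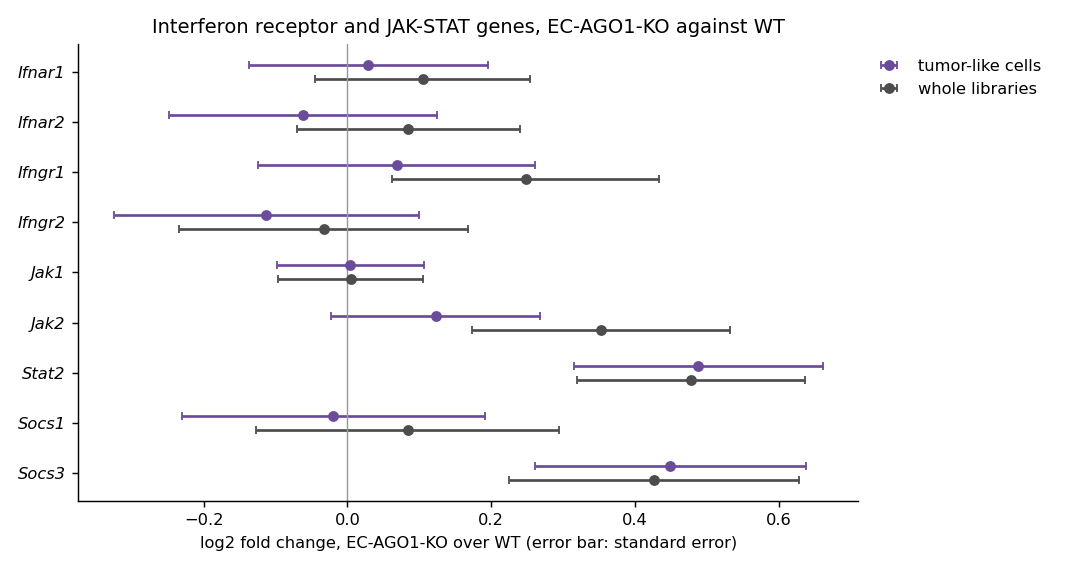
The horizontal axis gives the log2 fold change of EC-AGO1-KO over WT with its standard error for the 9 genes on the vertical axis, in tumor-like cells (purple) and in whole libraries (grey), fitted over 10 libraries. Stat2 (0.49 and 0.48) and Socs3 (0.45 and 0.43) lie farthest from 0, and no gene passed the adjusted threshold.

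Few of the 9 genes could be tested in the rarer classes. The filter on low counts kept Jak1 and Jak2 in T-like cells, Ifngr2, Jak1 and Jak2 in macrophage-like cells, Jak1 and Jak2 in stroma-like cells and none in monocyte-like cells. In the main setting none of those kept passed an adjusted or an unadjusted p of 0.05. Jak2 in T-like cells depended on the setting. Its log2 fold change was 0.57 in batch 2 alone (edgeR, unadjusted p = 0.0471, adjusted p = 0.911). Without the filter it was 0.69 (edgeR, unadjusted p = 0.0259, adjusted p = 0.741), and in DESeq2 0.38 (unadjusted p = 0.182). The values that follow are from the main setting. For Jak2 the log2 fold change was 0.38 ± 0.24 (SE) in T-like cells (unadjusted p = 0.123, adjusted p = 0.963), 0.21 ± 0.21 in macrophage-like cells (unadjusted p = 0.306) and -0.18 ± 0.29 in stroma-like cells (unadjusted p = 0.548). For Jak1 it was -0.18 ± 0.28, -0.24 ± 0.26 and -0.29 ± 0.28 in the same classes. For Ifngr2 in macrophage-like cells it was -0.09 ± 0.20. The edgeR test called 0 of 521 genes (0%) in T-like, 0 of 1008 (0%) in macrophage-like and 0 of 854 (0%) in stroma-like cells, and DESeq2 called none in these 3 classes. Unadjusted p-values under 0.05 numbered 22 (4.22%), 38 (3.77%) and 51 (5.97%). In monocyte-like cells 2 of 191 genes (1.05%) were called, namely Parp14, an interferon-stimulated gene, higher in KO (log2 fold change 1.32 ± 0.33, adjusted p = 0.00572) and Pvt1, a marker of the tumor cells used here, lower in KO (-1.35 ± 0.31, adjusted p = 0.00262), both named after their values were seen. DESeq2 called none there, and 25 genes (13.1%) had an unadjusted p under 0.05 in edgeR.

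Genes under the filter are given as levels. Stat2 in stroma-like cells measured 9.0 CPM in WT batch 1 and 28.3, 64.9, 0 and 54.9 CPM in WT 1, 3, 4 and 5, against 68.9 CPM in KO batch 1 and 135, 99.9, 50.2 and 153 CPM in KO 1, 2+3, 4 and 5+6. KO lay higher in batch 1, KO 4 lay within the WT range in batch 2, and all of this rested on 34 UMIs. In macrophage-like cells Stat2 measured 69.4 CPM in WT batch 1 and 129, 149, 99.8 and 128 CPM in WT 1, 3, 4 and 5, against 88.0 CPM in KO batch 1 and 215, 131, 97.1 and 329 CPM in KO 1, 2+3, 4 and 5+6, with overlap in batch 2. In monocyte-like cells Jak1 and Ifngr1 did not overlap between the 3 WT and 4 KO libraries of batch 2, both lower in KO, at 441, 296 and 115 CPM for Jak1 in WT 1, 3 and 5 against 73.3, 35.1, 87.8 and 113 CPM in KO 1, 2+3, 4 and 5+6. Of the 191 genes that passed the filter in this class 9 (4.71%) lay lower in KO without overlap. Jak1 and Ifngr1 were not among the 191, so this share does not cover genes of such low counts. Jak1 rested on 47 UMIs and Ifngr1 on 36 over both batches. Each library compared in batch 2 held only 1 to 4 UMIs of Jak1 and 1 to 3 of Ifngr1. In batch 1 Jak1 was level (156 in WT and 157 CPM in KO).

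In whole libraries, which mix all cells, none of the 9 genes and 0 of 12459 genes (0%) passed the adjusted threshold in edgeR, while 1133 (9.09%) had an unadjusted p under 0.05. DESeq2 called 2 genes (0.0194%), Gata3 and March1. Whole-library Stat2 was 25.4 CPM in WT batch 1 and 43.7, 40.2, 40.8 and 26.1 CPM in WT 1, 3, 4 and 5, against 37.2 CPM in KO batch 1 and 54.1, 70.7, 51.0 and 46.8 CPM in KO 1, 2+3, 4 and 5+6. The batch 2 groups did not overlap on the scale of all UMIs, as for 4.37% of genes higher and 0.321% lower in KO, but they overlapped with TMM scaling. Stat2 alone of the 9 had an unadjusted p under 0.05 (5.43% of genes had one and were higher in KO), with a log2 fold change of 0.48 ± 0.16 (SE; unadjusted p = 0.00859, adjusted p = 0.456). Jak2 measured 37.6 CPM in WT batch 1 and 76.0, 88.2, 65.7 and 69.9 CPM in WT 1, 3, 4 and 5, against 50.4 CPM in KO batch 1 and 71.1, 159, 93.7 and 82.7 CPM in KO 1, 2+3, 4 and 5+6. KO 2+3, which held 395 of the 977 T-like cells, was highest, and the part of its T-like cells in this value was not tested. The Jak2 log2 fold change was 0.35 ± 0.18 (unadjusted p = 0.0675, adjusted p = 0.580) and 0.11 (unadjusted p = 0.403) without KO 2+3. The other members ranged from -0.03 (Ifngr2) to 0.43 (Socs3).

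The rest of the pathway was read from lists of textbook members. The lists were chosen with earlier results of these data known, so their counts are a description and no separate support. Of 10 other receptor and signalling genes (such as Tyk2, Stat3 and Irf9), 8 were tested in tumor-like cells, 2 were higher in KO and none had an unadjusted p under 0.05, with a median log2 fold change of -0.03. Of 15 other negative regulators (such as Usp18 and the Pias genes), 13 were tested, 6 were higher in KO and 1 had an unadjusted p under 0.05, with a median of -0.03. Of the 30 interferon target genes, 27 were tested in tumor-like cells and 26 had a positive log2 fold change. Their median was 0.48 beside 0.00 over all genes, and 12 had an unadjusted p under 0.05, beside 5.34% of all genes. None passed the adjusted threshold in edgeR. The lowest p-values in the list belonged to Ifit1, an inhibitor of viral translation (0.91 ± 0.18, unadjusted p = 0.000119, adjusted p = 0.782), and Cmpk2, a mitochondrial nucleotide kinase (0.97 ± 0.20, unadjusted p = 0.000136, adjusted p = 0.782). DESeq2 called both (adjusted p = 0.0333 and 0.0412) and Gm11335.

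**Figure D4:**
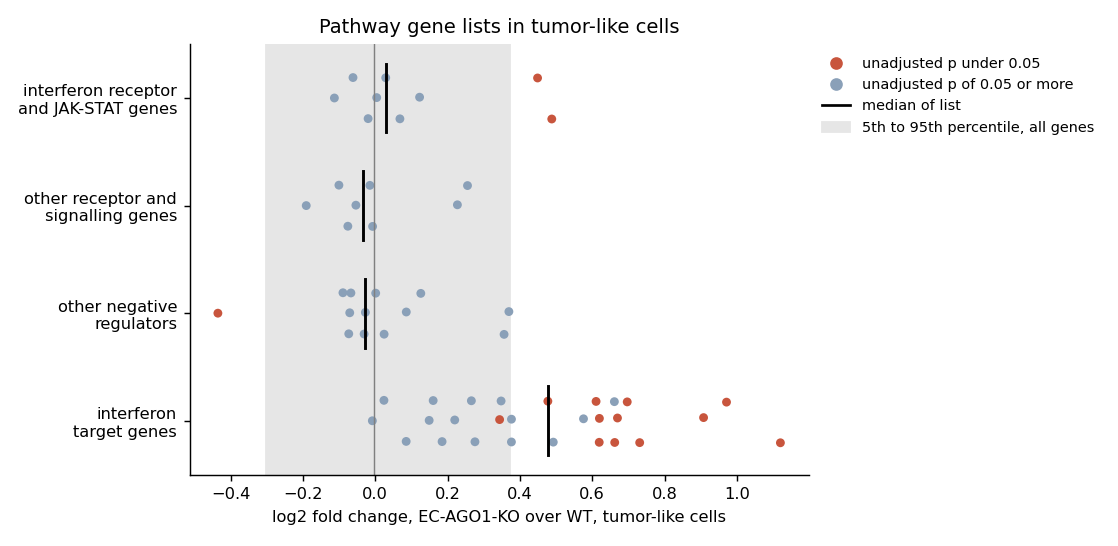
Log2 fold change of EC-AGO1-KO over WT in tumor-like cells (horizontal axis) for the genes of 4 lists (rows), red where the unadjusted p was under 0.05, with black bars at the list medians, the grey line at the median of all genes and the grey band from the 5th to the 95th percentile of all genes (-0.30 to 0.37). The target genes lie mostly to the right, with a median of 0.48, while the other 3 lists centre near 0.

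In whole libraries all 30 target genes were tested and all had a positive log2 fold change. Their median was 0.58 beside -0.01 over all genes, and 18 had an unadjusted p under 0.05, beside 9.09% of all genes. Whole libraries mix classes whose cell numbers differ between libraries, and the part of this in these values was not tested. Ifit1 measured 0.82 ± 0.18 there (adjusted p = 0.452), and Pias2, which binds STAT proteins, measured -0.47 ± 0.11 (adjusted p = 0.452). In the other classes 1 or 2 target genes passed the filter, and H2-K1 and B2m of antigen presentation had positive values, for example 0.74 ± 0.31 for H2-K1 in stroma-like cells (unadjusted p = 0.0269, adjusted p = 0.681) and 0.20 ± 0.29 for B2m in monocyte-like cells. In T-like cells the lowest p-values belonged to Pias2 (-0.50 ± 0.31) and Stat5b (-0.30 ± 0.26), neither under 0.05. In macrophage-like cells H2-K1 (0.19 ± 0.19) and B2m (0.21 ± 0.22) were lowest.

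The interferons themselves were nearly absent. Of 11 ligand genes, 4 had any UMI in whole libraries, 34 UMIs in all. Ifng had 26 of them, of which WT libraries held 6 (3 in T-like cells) and KO libraries 20 (12 in T-like cells). These UMIs are not per cell. The T-like cells numbered 52, 63, 71, 14 and 44 in WT batch 1 and WT 1, 3, 4 and 5. In KO batch 1 and KO 1, 2+3, 4 and 5+6 they numbered 59, 69, 395, 114 and 96. Ifnb1 had 6 UMIs, of which WT held 5 and KO held 1. With so few UMIs no difference in ligands was detectable at this depth.

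Marker genes of other cells were summed in the tumor-like class. The summed level of the 17 T markers ranged from 8.86 to 20.6 CPM in WT and from 11.1 to 25.6 CPM in KO libraries, and that of the 14 macrophage markers from 34.4 to 96.4 CPM in WT and from 34.6 to 86.5 CPM in KO libraries, with 1 T marker at 0 in WT and no macrophage marker at 0, and their part in the tumor-like values was not tested. Tumor markers within the T-like cells ranged from 991 to 3256 CPM in WT and from 892 to 2948 CPM in KO libraries, and their part in the T-like values was not tested.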

How the data were processed

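Tumors of 5 WT and 5 KO libraries were compared. What the authors deposited for each library is a matrix of unnormalised UMI counts (10x 3' chemistry), made with Cell Ranger 7.1.0 on mm10 per the submitters' processing notes, with empty droplets kept. Whether intronic reads were counted is not given in the sources used here. The members and lists were chosen with earlier results of these data known.

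A barcode was kept as a cell if it had 200 to 7000 genes and its mitochondrial share was at most 10%. Cells were clustered on 2000 variable genes (the 9 genes, Ago1, Actb and the other receptor and signalling genes left out), 30 principal components and 15 neighbours with the Leiden algorithm at resolution 1 (leidenalg 0.10.2, Python 3.11.15). Immune and stroma clusters were split again at the same resolution. A cluster could be named where at least 3 markers were 4-fold above the median cluster and present in 2% of its cells, or, for tumor-like clusters, 2-fold above the named non-tumor cells of the batch. A name was withheld where the 10 leading genes held none of its own markers or more of another class, or where 5 or more markers of another lineage passed (macrophage markers in T clusters, T markers in myeloid clusters, and each of these in stroma clusters), which with clusters lacking markers left 1003 cells unnamed. Clusters holding 30% or more of the tumor level of both Pvt1 and Cdh13 also stayed unnamed, as mixtures (4821 cells). These thresholds were set after the clusters were seen, before any member was compared between genotypes. Doublets were not removed. UMIs were summed per library and class, so n counts libraries. Libraries of a group came from separate mice, as far as the labels number them, and p-values measure the spread between libraries.

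Sums were tested with edgeR 4.0.16 in R 4.3.3 (quasi-likelihood, TMM, filterByExpr, batch as covariate, two-sided, Benjamini-Hochberg over all genes tested), in libraries with at least 10 cells of a class. Standard errors are the log2 fold change divided by the root of its F value. The procedure was tested on simulated data. All 9 genes were named in every class. Of the other pathway genes, at most 2 with the lowest p were named per class unless adjusted p-values passed 0.05, and like-profile genes were the 2 with the highest r. Alternatives covered scaling, DESeq2 1.42.0, filters, batch, libraries, clustering and a replicate block. Precision is limited by the depth of batch 2 and by few cells outside the tumor-like class, and limits from a count of 0 cover counting error only.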

Additional observations from a re-analysis of the deposited data

Results flagged for a closer look

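A value was marked where 1 of 4 libraries of a group in batch 2 lay far from the others (gap over range above Dixon's 95% critical value, in groups with at least 20 UMIs), which chance gives in about 1 of 20 groups. There were 2 such values among 57 groups. Ifngr2 in macrophage-like cells was 698 CPM in WT 4, whose next library stood at 441 CPM and whose lowest stood at 426 CPM. WT 4 held 28 macrophage-like cells. Jak2 in macrophage-like cells was 243 CPM in KO 4, below the other KO libraries at 364 to 377 CPM. An interaction term detected no difference in genotype effect between batches for any member. Batch 1 held 1 library of each genotype, so the term could not show that the effects were alike. In tumor-like cells its largest estimates (log2, batch 2 minus batch 1) were 0.91 for Socs1 and 0.76 for Ifnar2.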

How the results depend on the processing

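No member was called in any setting: 511 fold changes of the 9 genes over the alternatives gave 0 calls, and 55 of them, all uncalled, had the other sign than the main value. In tumor-like cells Stat2 was positive in 22 of 22 alternatives (log2 fold change 0.27 to 0.57, adjusted p 0.317 to 1.00) and Socs3 in 22 of 22 (0.27 to 0.57, adjusted p 0.557 to 1.00). The lowest values came from the replicate block, in which the batch 1 pair and the pairs numbered 1 and 4 were blocks: it gave 0.27 for each, 0 calls in tumor-like cells, 0 in monocyte-like cells and 0 in whole libraries. The numbers only name mice. Correlations of deviations within pairs ranged from -0.303 to 0.132 over the classes, the highest for the 1 pair in monocyte-like cells.

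Counts of called genes, 0 in the comparisons reported except 2 in monocyte-like cells, moved as follows, and the cause was not tested unless the setting is itself the cause. Without the filter on low counts 36 genes were called in tumor-like cells, 8 in macrophage-like, 1 in monocyte-like, 4 in stroma-like cells and 241 in whole libraries. DESeq2 called 3, 0 and 2 in tumor-like cells, monocyte-like cells and whole libraries. In batch 2 alone 3 were called in macrophage-like, 4 in monocyte-like and 1 in stroma-like cells. With at most 20% mitochondrial UMIs 1 was called in macrophage-like and 0 in monocyte-like cells. In monocyte-like cells 0 were called without a batch term, without both pooled KO libraries and at resolution 0.5, and 1 at resolution 2. Leaving out 1 library gave 0 to 4 calls in macrophage-like (4 without WT batch 1 or KO batch 1, 1 without WT 3 or WT 4), 0 to 3 in monocyte-like (0 without WT 1, KO 4 or KO 5+6, 1 without WT 5), 0 to 1 in stroma-like cells (1 without WT batch 1, KO batch 1 or WT 1) and 0 to 1 in whole libraries (1 without KO 4). At resolution 0.5 most batch 1 tumor cells fell into unnamed mixtures, with 7 (WT) and 10 (KO) left. Of 270 batch 2 means, 11 moved by more than 1 SD, and 8 or 9 of the 9 genes stayed higher in macrophage-like than in tumor-like cells in every setting of levels. Levels outside the tumor-like class rest on few UMIs for most members.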

Other observations

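Outside the 5 classes, Jak2 had its highest level in the dendritic-like cells, which entered no comparison. This class held 178 cells in the main setting. It held 0 cells at resolution 0.5, at resolution 2 and with at most 20% mitochondrial UMIs. Pvt1, the tumor marker, stood at 42.5% of its tumor level in this cluster, and the part of tumor RNA in these values was not tested. Jak2 reached 1386 CPM (25 UMIs in 12 cells) in WT and 993 CPM (25 UMIs in 12 cells) in KO of batch 1. In batch 2 the cells pooled over libraries held 1653 CPM (72 UMIs) in WT and 1577 CPM (87 UMIs) in KO. Ifngr2 measured 207 and 199 CPM and Stat2 91.9 and 109 CPM in the same batch 2 cells, while Ifngr1 had 0 UMIs. In the 65 B-like cells, all of batch 1, Jak1 measured 306 CPM in WT and 305 CPM in KO.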
